A study of Homo sapiens with 18 samples.

Results

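The angiomotins and 7 genes commonly used as readouts of YAP and TEAD activity were followed in tumours exposed for 24 hours to a single compound at increasing dose. The set was fixed by gene symbol and holds 10 of the 25343 human genes in each table: the angiomotins AMOTL2, AMOTL1 and AMOT, and the targets CCN1 (formerly CYR61), CCN2 (formerly CTGF), ANKRD1, ARHGEF17, LATS2, AXL and NT5E. Each was found by its Entrez gene ID. The samples were 18 tumours formed in mice by implanted HCT116 cells, a human cell line derived long ago from a colon cancer. All 18 tumours carried the same PTDSS2 knockout (PTDSS2-KO), controls included, so PTDSS2 status was not a variable here. PTDSS2 encodes a phosphatidylserine synthase, and the series title names the paralogous enzyme PTDSS1 as the drug target. In 3 groups of 6, mice were dosed by mouth with 0.5% methylcellulose alone (vehicle), or with DS55980254 at 10 mg/kg or at 30 mg/kg in the same carrier, and tumours were taken 24 hours later. The labels do not say whether the tumours of a group came from separate mice or whether the knockout line is a single clone. The p-values below therefore measure the spread between these samples.

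Angiomotins are scaffold proteins of tight junctions and the actin cytoskeleton that bind the transcriptional co-activator YAP and hold it in the cytoplasm. They also promote its phosphorylation by the LATS kinases of the Hippo pathway. When YAP or its paralogue TAZ reaches the nucleus, it acts through the TEAD DNA-binding proteins, and CCN1, CCN2, ANKRD1 and AMOTL2 are among the best known genes they switch on. AMOTL2 and LATS2 are also inhibitors of YAP, so that as targets they form negative feedback. In colon epithelium the pathway is known for its part in regeneration and tumour growth.

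TEAD proteins bind the DNA core GGAATG, and this motif was located in the promoter windows of the members to show which of the windows hold it. The windows are RefSeq sequences of GRCh38.p14 running from 250 bases before to 50 bases after a transcription start, and 8 of the 10 members matched, all but CCN1 and ARHGEF17. Both strands were searched for GGAATG, which reads CATTCC on the opposite strand. AMOTL2 is listed with 2 starts, and the 250 bases before the second, on the minus strand, hold 1 match. CCN2 holds 3 matches and ANKRD1 holds 2. These 3 stretches are shown because they belong to the most changed member and to a pair of classical readouts. They are written 5′ to 3′ along the gene, with the motif in capitals.
AMOTL2 second start, chr3:134374448-134374697, minus strand: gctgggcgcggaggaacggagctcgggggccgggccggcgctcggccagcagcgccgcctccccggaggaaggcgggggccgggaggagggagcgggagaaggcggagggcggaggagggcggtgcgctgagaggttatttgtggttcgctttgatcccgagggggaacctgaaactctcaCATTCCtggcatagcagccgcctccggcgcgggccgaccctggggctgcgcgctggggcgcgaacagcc
CCN2, chr6:131951373-131951622, minus strand: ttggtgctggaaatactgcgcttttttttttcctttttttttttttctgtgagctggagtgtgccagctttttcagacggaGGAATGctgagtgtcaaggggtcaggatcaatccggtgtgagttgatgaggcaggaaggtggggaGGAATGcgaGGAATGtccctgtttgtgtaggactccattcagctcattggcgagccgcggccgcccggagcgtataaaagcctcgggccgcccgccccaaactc
ANKRD1, chr10:90921088-90921337, minus strand: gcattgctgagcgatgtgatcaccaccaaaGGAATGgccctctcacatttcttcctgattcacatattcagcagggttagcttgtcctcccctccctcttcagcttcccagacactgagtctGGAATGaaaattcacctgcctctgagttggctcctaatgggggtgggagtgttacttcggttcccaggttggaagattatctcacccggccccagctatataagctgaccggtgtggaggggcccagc
In the AMOTL2 stretch the match begins 69 bases before the start and lies on the opposite strand. In CCN2 the matches begin 169, 104 and 95 bases before the start, and in ANKRD1 they begin 220 and 128 bases before it. LATS2 has a match just after its start, and the second listed start of AXL has a match 212 bases upstream. These are shown as 30 bases around the motif.
LATS2, chr13:21061560-21061589, minus strand: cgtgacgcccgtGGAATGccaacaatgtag
AXL second start, chr19:41226531-41226560, plus strand: cagactttgcacCATTCCactccctccgct
In all, 5 of the 8 members with a window held the motif somewhere in their 300 bases, or 5 of their 10 windows. The windows of AMOTL1, AMOT and NT5E held no match, which says only that these letters are not in those windows. Of all 35116 windows in the table, 14% held the motif in 300 bases, 11.9% held it in the 250 bases before the start, 0.94% held it there at least 2 times and 0.0826% at least 3 times. A match is a description of the sequence and not a measured binding site.

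Levels of 1 gene across libraries are given as CPM, the expected count scaled to the effective size of the library. Levels of different genes are compared as TPM, which also divides by transcript length. The deposited expected counts summed to between 3435435 and 8538793 in 17 libraries and to 433989 in replicate 2 of 10 mg/kg. That shallow library correlated with the other 17 at a mean Pearson r of 0.726 on the log2 scale, against 0.942 to 0.954 for each of the others. It held 27 counts of AMOTL2, 35 of CCN1, 6 of CCN2 and 6 of ANKRD1, so the 10 mg/kg values of the targets below are given with and without it. PTDSS2 itself was counted in all 18 libraries, between 4.97 and 13.9 CPM, and the labels do not say which part of the gene was disrupted, so these counts do not check the knockout. Of the colon epithelium markers, KRT8, KRT18, EPCAM, CDH1 and CDX2 were measured in every library. CDX1 was at 0 in every vehicle and 30 mg/kg library, and CDX1, CEACAM5, KRT20, LGALS4 and VIL1 did not pass the filter on low counts.

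Of the 3 angiomotins AMOTL2 alone passed the test, and it fell at both doses. AMOTL2 measured 78.0 CPM in the lowest vehicle library, 92.8 at the median and 106.5 in the highest. With 10 mg/kg it measured 36.2, 54.2 and 57.8 CPM (lowest, median, highest), and with 30 mg/kg 34.9, 40.6 and 47.0 CPM. Every treated library, 12 of 12, lay below every vehicle library. The group means were 92.6 ± 9.15, 49.98 ± 8.51 and 41.2 ± 4.97 CPM (SD, n = 6 each). The log2 fold change of AMOTL2 was -0.91 (SE 0.119, adjusted p = 0.000176) at 10 mg/kg and -1.17 (SE 0.117, adjusted p = 4.17e-06) at 30 mg/kg, by edgeR's quasi-likelihood test over 14074 genes with Benjamini-Hochberg adjustment. On the linear scale these are folds of 0.531 (95% interval 0.447 to 0.630) and 0.446 (0.377 to 0.527).

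AMOTL2 ranked 6 by p among all genes tested at 10 mg/kg and 2 at 30 mg/kg. Fitted as a line through the dose steps (coded 0, 1 and 2), it fell by 0.59 on the log2 scale per step (SE 0.0661, adjusted p = 5.43e-05 by edgeR) and ranked 1. The step from 10 to 30 mg/kg alone was -0.25 (SE 0.122), with an unadjusted p of 0.0499 and an adjusted p of 0.969 by edgeR, so that the doses were not separated by this test. AMOTL2 was 1 of 7 genes called lower at 10 mg/kg, or 0.0497% of the genes tested, and 1 of 7 called lower at 30 mg/kg, again 0.0497%. Without replicate 2 of 10 mg/kg the value at 10 mg/kg was -0.93 (adjusted p = 1.65e-05). That library enters the comparison of 30 mg/kg with vehicle only indirectly, through the shared estimate of the spread, the filter on low counts and the scaling. In bulk tumour RNA, fewer cells of a type and less RNA per cell cannot be told apart, and this holds for every member.

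**Figure D1:**
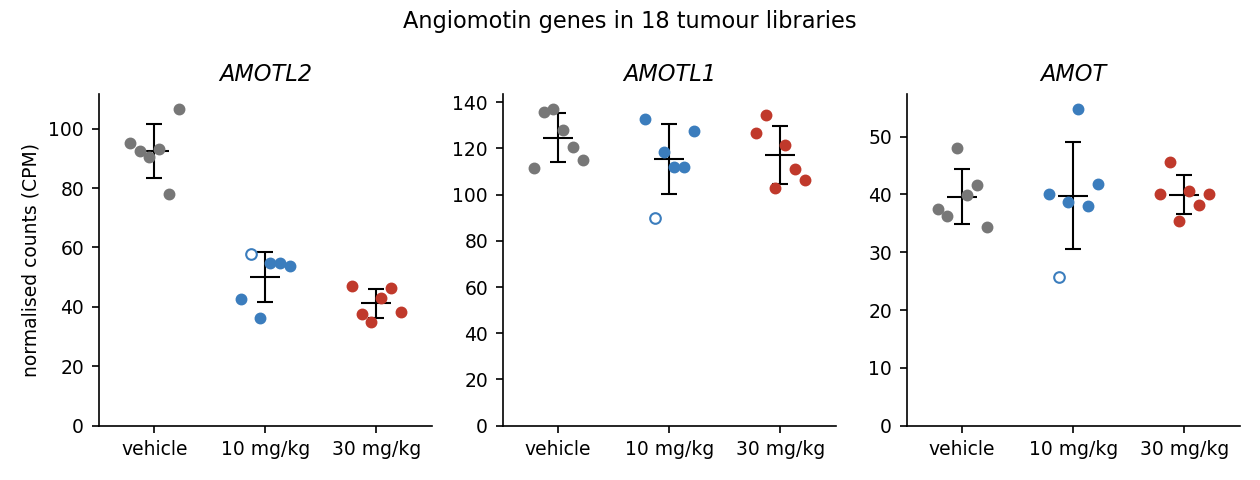
Normalised counts (CPM, vertical axis from 0) of AMOTL2, AMOTL1 and AMOT by group. Each point is 1 library, the open point is the shallow replicate 2 of 10 mg/kg, and bars are mean ± SD (n = 6). All 12 treated libraries lie below the vehicle libraries for AMOTL2, while the groups overlap for the other 2 genes.

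AMOTL1, the paralogue also bound to junctions, measured 124.7 ± 10.7 CPM in vehicle tumours, 115.4 ± 15.1 CPM with the low dose and 117.1 ± 12.5 CPM with the high dose (SD, n = 6). The groups overlapped at both doses, with log2 fold changes of -0.09 (95% interval -0.30 to 0.12) and -0.09 (-0.29 to 0.11). AMOT, the founding member of the family, measured 39.6 ± 4.83, 39.8 ± 9.29 and 40.0 ± 3.38 CPM in the same order. Its log2 fold changes were 0.06 (-0.20 to 0.32) and 0.01 (-0.24 to 0.26), signs that turned under other settings. For both genes the lower ends of these intervals lie above the upper ends for AMOTL2, which were -0.67 at 10 mg/kg and -0.92 at 30 mg/kg.

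Per transcript length, AMOTL2 was the most abundant angiomotin with vehicle and gave way to AMOTL1 after treatment. AMOTL2 measured 36.9 ± 3.48 TPM in vehicle tumours, 18.7 ± 3.87 TPM with the low dose and 16.2 ± 2.20 TPM with the high dose (SD, n = 6), while AMOTL1 measured 27.5 ± 2.07, 24.4 ± 6.02 and 25.5 ± 3.64 TPM. AMOTL1 exceeded AMOTL2 in 0 of 6 vehicle libraries, in 5 of 6 at 10 mg/kg and in 6 of 6 at 30 mg/kg. The exception at 10 mg/kg was the shallow replicate 2. AMOTL2 made up 48.5 ± 3.91% of the angiomotin TPM in vehicle tumours, 35.0 ± 6.39% with the low dose and 30.4 ± 2.78% with the high dose. The vehicle shares (44.4% to 54.5%) lay above all the 30 mg/kg shares (25.8% to 34.1%), and 1 of the 10 mg/kg shares, 45.5%, reached into the vehicle range. The 3 genes together summed to 76.0 ± 2.30 TPM in vehicle tumours, 54.5 ± 11.6 TPM with the low dose and 53.4 ± 6.23 TPM with the high dose. The lowest sum at 10 mg/kg, 32.5 TPM, came from the shallow replicate 2, where AMOTL1 measured 12.7 TPM. The highest sums, 64.0 TPM at 10 mg/kg and 61.4 TPM at 30 mg/kg, lay below the lowest vehicle sum of 71.8 TPM. The sum was thus lower as well.

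**Figure D2:**
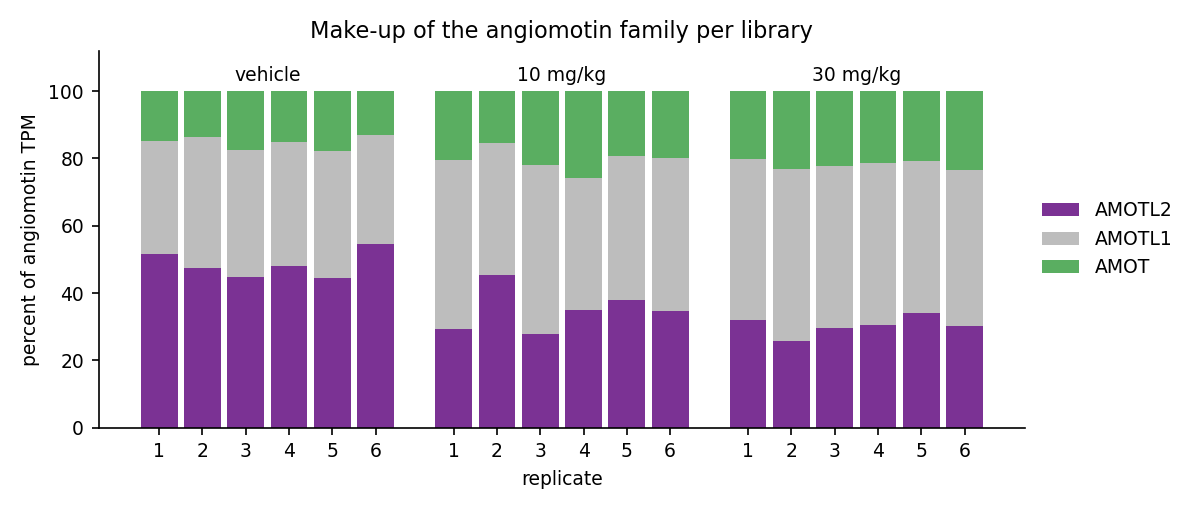
Share of AMOTL2, AMOTL1 and AMOT in the summed TPM of the 3 genes (percent, vertical axis) in each of the 18 libraries (replicate number, horizontal axis). AMOTL2 takes 44.4% to 54.5% with vehicle and 25.8% to 34.1% at 30 mg/kg.

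Of the 7 targets, ARHGEF17 fell and NT5E rose at 30 mg/kg, none passed the test at 10 mg/kg, and the classical secreted targets CCN1 and CCN2 did not pass at either dose. Counting the angiomotins, 9 of the 10 members had enough counts to be tested, ANKRD1 being the exception. At 10 mg/kg, 1 member was lower and 0 were higher, against 0.0497% and 0.419% of all genes tested. At 30 mg/kg, 2 were lower and 1 was higher, against 0.0497% and 0.568%. Over the dose steps the same counts were 2 lower and 1 higher, against 0.0497% and 0.441%. Between 30 and 10 mg/kg no member was called, and no gene of the 14074 was (0%) by edgeR or by DESeq2, with 496 genes at an unadjusted p under 0.05 in edgeR. The median log2 fold change of the 9 members was -0.31 at 10 mg/kg and -0.34 at 30 mg/kg, beside -0.01 and -0.00 over all genes tested. Both dose comparisons share the vehicle libraries. The members were chosen with earlier results of these data known, so these counts and medians describe the set only.

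CCN1 and CCN2 encode secreted matrix proteins that are among the most used readouts of YAP. CCN1 measured 9.29 CPM in the lowest vehicle library, 13.9 at the median and 21.4 in the highest. At 10 mg/kg it measured 8.02, 12.3 and 74.9 CPM, and at 30 mg/kg 6.18, 9.78 and 13.4 CPM. The groups overlapped, and the highest value of all came from the shallow replicate 2 of 10 mg/kg. The next highest within that group was 18.4 CPM. The log2 fold change of CCN1 was 0.15 (SE 0.371, adjusted p = 0.929 by edgeR) at 10 mg/kg and -0.56 (SE 0.358, adjusted p = 0.820) at 30 mg/kg. Without replicate 2 of 10 mg/kg the first turned to -0.26 (adjusted p = 0.775), and the adjusted p of the second was 0.275.

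CCN2 measured 5.49, 7.07 and 9.88 CPM with vehicle (lowest, median, highest), 3.10, 5.81 and 12.8 CPM at 10 mg/kg, and 1.54, 3.47 and 5.48 CPM at 30 mg/kg. The 30 mg/kg libraries lay just below the vehicle libraries without overlap, while the 10 mg/kg libraries spread across both. The log2 fold change was -0.33 (SE 0.307, adjusted p = 0.766 by edgeR) at 10 mg/kg and -0.97 (SE 0.303, adjusted p = 0.238) at 30 mg/kg. The interval at 30 mg/kg, -1.59 to -0.34, excludes 0, but the gene did not pass after adjustment over all genes. Without replicate 2 of 10 mg/kg the highest value of that group was 8.11 CPM and its log2 fold change -0.44 (adjusted p = 0.663), and the adjusted p at 30 mg/kg was 0.0923. CCN2 rested on 6 to 42 counts per library.

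ANKRD1, an ankyrin repeat protein and a strong YAP target in many cells, was close to undetected. It was counted in 5 of 6 vehicle libraries, 4 of 6 at 10 mg/kg and 2 of 6 at 30 mg/kg, with at most 11 counts in any library. Its CPM ran from 0 to 1.21 with vehicle, from 0 to 12.8 at 10 mg/kg and from 0 to 2.74 at 30 mg/kg. The value of 12.8 CPM was 6 counts in the shallow replicate 2, and the highest of the rest of that group was 3.18 CPM. A change of ANKRD1 was not detectable at this depth. Fitted without the filter on low counts, its log2 fold changes were 1.58 (SE 1.29, adjusted p = 0.524 by edgeR) and -0.15 (SE 1.23, adjusted p = 1).

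ARHGEF17 encodes a guanine nucleotide exchange factor that acts on the actin cytoskeleton. It measured 69.6, 78.2 and 85.6 CPM with vehicle (lowest, median, highest), 49.1, 58.1 and 72.7 CPM at 10 mg/kg, and 36.2, 52.8 and 60.6 CPM at 30 mg/kg. All 30 mg/kg libraries lay below all vehicle libraries, and at 10 mg/kg only the shallow replicate 2 reached the vehicle range in CPM. By TPM that library was the lowest of its group (11.85). Every 10 mg/kg library (at most 16.8 TPM) then lay below every vehicle library (at least 17.3 TPM). The log2 fold change was -0.43 (SE 0.119, adjusted p = 0.157 by edgeR) at 10 mg/kg and -0.59 (SE 0.116, adjusted p = 0.00933) at 30 mg/kg, a fold of 0.664 (95% interval 0.562 to 0.784). Without replicate 2 of 10 mg/kg, ARHGEF17 passed at 10 mg/kg as well, at -0.46 (adjusted p = 0.0486). In the line over dose steps it fell by 0.30 on the log2 scale per step (adjusted p = 0.0121). The lowest 30 mg/kg library was replicate 5, and without it the value was -0.51 (adjusted p = 0.0226). With limma on log2(TPM + 1) the call at 30 mg/kg was lost (adjusted p = 0.141).

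LATS2 is the Hippo kinase that phosphorylates YAP and is itself a YAP target. It measured 37.8, 42.9 and 51.5 CPM with vehicle (lowest, median, highest), 29.1, 34.01 and 53.5 CPM at 10 mg/kg, and 30.3, 34 and 44.1 CPM at 30 mg/kg. The groups overlapped in CPM through the shallow replicate 2 and replicate 4 of 10 mg/kg and replicate 5 of 30 mg/kg. By TPM replicate 2 (12.3) lay below the vehicle libraries (at least 13.9). The log2 fold changes were -0.31 (SE 0.134, adjusted p = 0.449 by edgeR) and -0.34 (SE 0.129, adjusted p = 0.432), and neither passed. The first was -0.37 without replicate 2 of 10 mg/kg (adjusted p = 0.219).

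AXL encodes a receptor tyrosine kinase for GAS6 and was the most abundant member per length in all 3 groups. It measured 155.7, 169.8 and 199.9 CPM with vehicle (lowest, median, highest), 107.6, 139.7 and 165.8 CPM at 10 mg/kg, and 129.9, 138.6 and 142.8 CPM at 30 mg/kg. The 30 mg/kg libraries were tightly grouped below the vehicle libraries with no overlap. The log2 fold changes were -0.36 (95% interval -0.58 to -0.14, adjusted p = 0.215 by edgeR) and -0.34 (-0.56 to -0.13, adjusted p = 0.221). Leaving out replicate 2 gave -0.39 at 10 mg/kg (adjusted p = 0.0662). AXL passed at 30 mg/kg only when the 12 libraries of that comparison were fitted alone (adjusted p = 0.0289).

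NT5E encodes the ectoenzyme CD73, which makes extracellular adenosine, and was the target that rose. It measured 12.4, 19.3 and 21.95 CPM with vehicle (lowest, median, highest), 17.03, 23.5 and 37.8 CPM at 10 mg/kg, and 26.6, 31.5 and 40.9 CPM at 30 mg/kg. All 30 mg/kg libraries lay above all vehicle libraries, and 3 of the 6 at 10 mg/kg did. The log2 fold change was 0.52 (SE 0.186, adjusted p = 0.336 by edgeR) at 10 mg/kg and 0.81 (SE 0.179, adjusted p = 0.0267) at 30 mg/kg, a fold of 1.76 (95% interval 1.36 to 2.27). In the line over dose steps NT5E rose by 0.40 on the log2 scale per step (adjusted p = 0.0362). The call at 30 mg/kg was lost when any 1 of 7 libraries was left out, replicate 1, 4 or 5 of vehicle or replicate 1, 3, 4 or 6 of 30 mg/kg, with adjusted p up to 0.106. It was also lost with limma on log2(TPM + 1) (adjusted p = 0.300) and without the filter on low counts (adjusted p = 0.0623). The value at 10 mg/kg was 0.55 without replicate 2 of that group (adjusted p = 0.218).

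**Figure D3:**
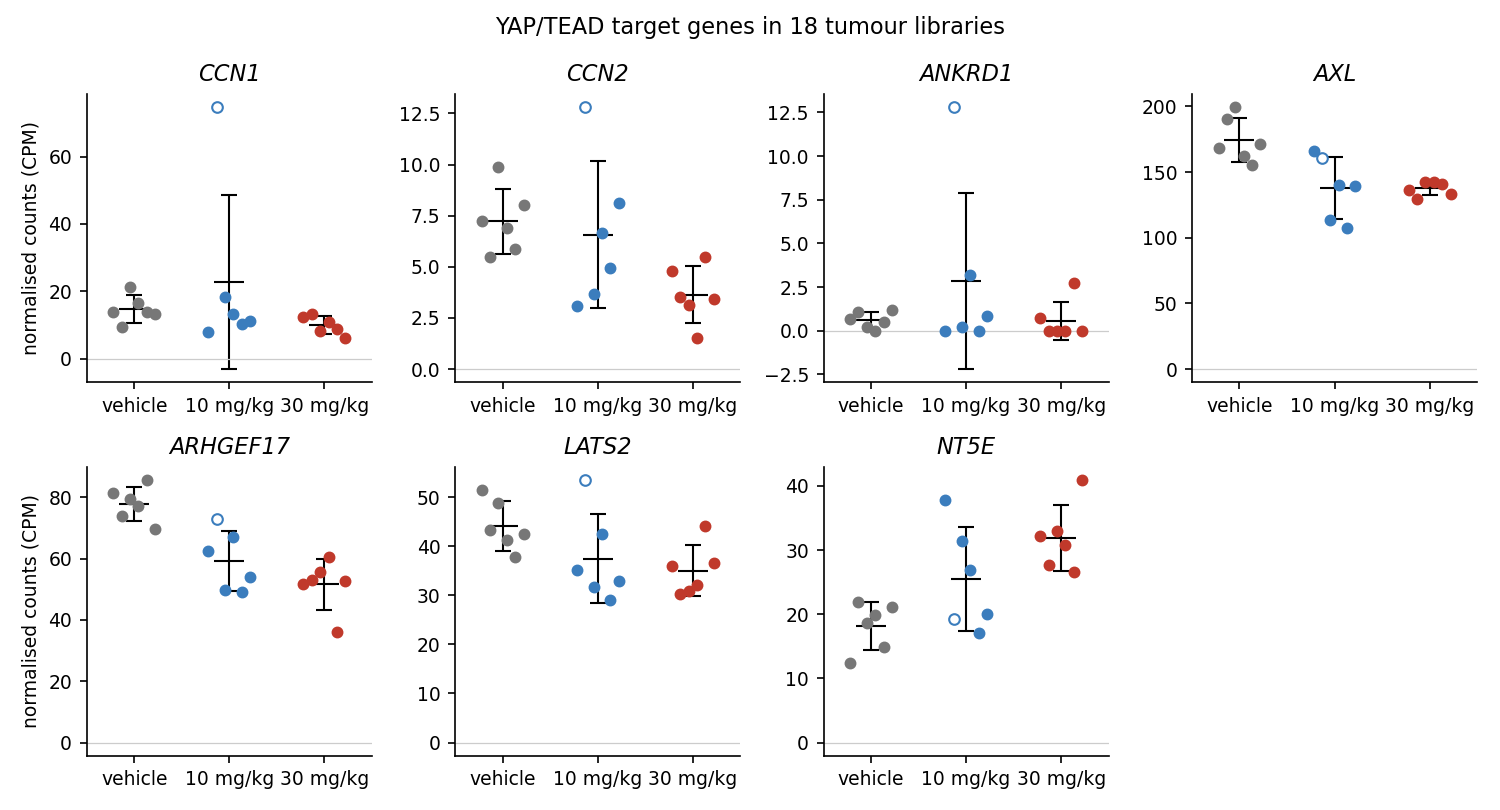
Normalised counts (CPM, vertical axes differ between panels) of the 7 targets by group, 1 point per library, with mean ± SD (n = 6) and the shallow replicate 2 of 10 mg/kg as an open point. In CPM that library is the highest of its group for CCN1, CCN2, ANKRD1, ARHGEF17 and LATS2, and the 30 mg/kg points lie above all vehicle points only for NT5E.

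By the separation of the libraries in CPM, AMOTL2 was the member whose groups did not overlap at 10 mg/kg (lower). Beside it, 0.469% of all genes tested were lower without overlap and 0.689% were higher. At 30 mg/kg, AMOTL2, CCN2, ARHGEF17 and AXL were lower without overlap and NT5E was higher, beside 0.476% and 1.25% of all genes. By group means, AMOTL2, CCN2 and ARHGEF17 were lower at each dose step and NT5E was higher at each step, with or without replicate 2 of 10 mg/kg. For the other 6 members the order of the group means depended on that library or had no single direction.

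**Figure D4:**
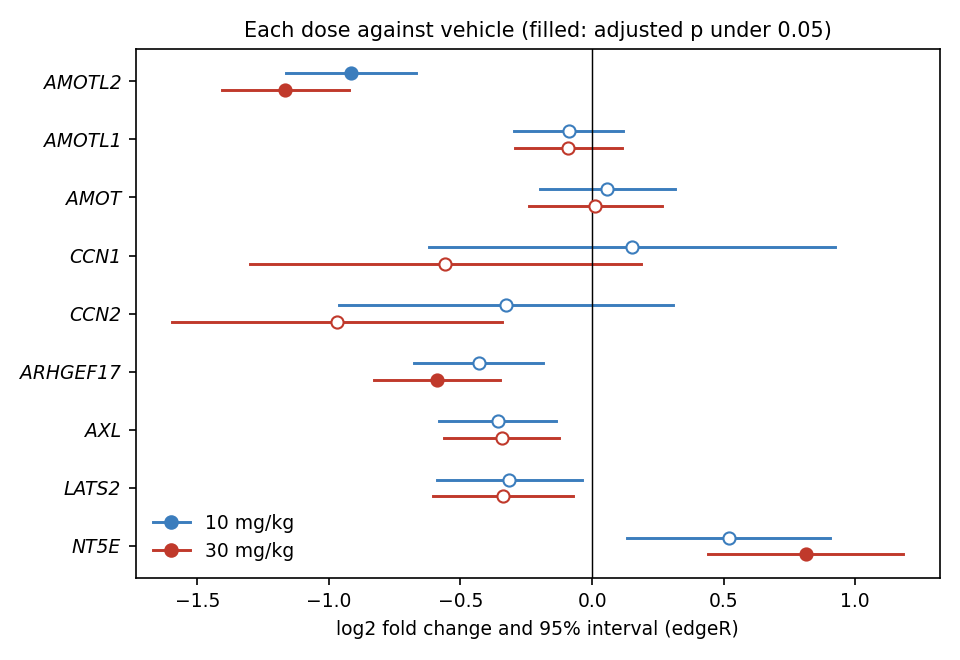
Log2 fold change of the 9 tested members against vehicle (points) with 95% intervals (lines), at 10 mg/kg in blue and 30 mg/kg in red. Filled points passed an adjusted p of 0.05, which AMOTL2 did at both doses and ARHGEF17 and NT5E did at 30 mg/kg.

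Ordered by TPM, the vehicle tumours had AXL highest (75.1 ± 6.90), followed by AMOTL2, AMOTL1 (27.5 ± 2.07), ARHGEF17 (19.8 ± 1.79), LATS2 (15.9 ± 1.82), CCN1 (13.0 ± 3.23), AMOT (11.6 ± 1.25), NT5E (8.92 ± 1.75), CCN2 (6.23 ± 1.18) and ANKRD1 (0.633 ± 0.481, SD, n = 6 each). The first 4 did not overlap with their neighbours above, and from ARHGEF17 down to CCN2 each gene overlapped with the next, while ANKRD1 lay below without overlap. At 30 mg/kg AXL (58.6 ± 2.23) and AMOTL1 still stood apart at the top. Below them AMOTL2, NT5E (15.5 ± 2.69), ARHGEF17 (13.0 ± 2.46), LATS2 (12.4 ± 1.46), AMOT (11.6 ± 1.31) and CCN1 (8.75 ± 2.70) formed a chain in which neighbours overlapped, and CCN2 lay below CCN1 without overlap. NT5E thus moved from place 8 to place 4 in the order of means.

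The wider pathway was read from lists of other genes. Of 22 further YAP and TEAD targets, 17 had enough counts. None passed at 10 mg/kg, where the median log2 fold change was -0.18, with 11 of 17 negative. At 30 mg/kg 1 was higher and 0 were lower, with a median of -0.16. The gene that rose was AREG, an EGF receptor ligand, from 168.2 ± 19.6 CPM in vehicle tumours to 212.7 ± 36.5 CPM with the low dose and 248.4 ± 16.8 CPM with the high dose (SD, n = 6). Its log2 fold change at 30 mg/kg was 0.56 (SE 0.111, adjusted p = 0.00945 by edgeR). THBS1, a secreted matrix protein, measured 24.3 ± 3.51, 21.0 ± 10.6 and 14.7 ± 2.90 CPM, with a log2 fold change of -0.71 at 30 mg/kg (adjusted p = 0.130). TNS3, a focal adhesion protein, stood at -0.44 (adjusted p = 0.130), and DOCK5, an exchange factor for Rac, at -0.32 (adjusted p = 0.297). None of these 3 passed.

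Leaving out replicate 2 of 10 mg/kg altered this list. AREG then passed at 10 mg/kg too (log2 fold change 0.43, adjusted p = 0.00987). At 30 mg/kg THBS1 (-0.71, adjusted p = 0.0280), DOCK5 (-0.32, adjusted p = 0.0449) and AJUBA, a LIM protein that binds LATS kinases (-0.68, adjusted p = 0.0449), passed as lower beside AREG. AJUBA was named after its values were seen. In that fit 0.113% of 14145 genes were lower and 0.742% higher at 10 mg/kg, and 0.304% lower and 0.983% higher at 30 mg/kg. The omitted library is not part of the 30 mg/kg comparison, where it acts on the adjusted p-values through the shared spread, the filter and the scaling.

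The regulators of the pathway did not pass the test. Of 17 Hippo kinases and upstream genes, 0 passed at either dose, with medians of -0.04 and 0.01 on the log2 scale. The smallest p-values were those of the atypical cadherin DCHS1 (0.81 at 10 mg/kg, adjusted p = 0.496), WWC2 (-0.22 at 30 mg/kg, adjusted p = 0.610), TAOK3 (0.27, adjusted p = 0.843) and WWC1 (-0.15, adjusted p = 0.853). DCHS1 at 10 mg/kg included 27.8 CPM in its highest library against a median of 6.33. Without the shallow replicate 2 of that group its log2 fold change was 0.55 (adjusted p = 0.592 by edgeR). The co-activators and their DNA-binding partners were measured in full, and 0 of 7 passed at either dose, with medians of -0.02 and -0.12.

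At 30 mg/kg the log2 fold changes were 0.04 for YAP1, 0.26 for WWTR1 (which encodes TAZ), -0.19 for TEAD1, -0.24 for TEAD2, 0.05 for TEAD3, -0.22 for TEAD4 and -0.12 for VGLL4, a TEAD-binding repressor. YAP1 measured 220.7 ± 20.3 CPM with vehicle and 226.7 ± 42.0 at 30 mg/kg, with a 95% interval of -0.36 to 0.44 for its log2 fold change, so that a change of moderate size in either direction lies within it. At 10 mg/kg the 7 genes ran from -0.27 (TEAD2) to 0.16 (WWTR1). These are RNA levels and carry no information on the phosphorylation or location of YAP.

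Of 14 genes for partners of the angiomotins and for their turnover, 0 passed at either dose (medians -0.11 and 0.01). CRB3, an apical polarity protein, came nearest, measuring 15.1 ± 2.21 CPM in vehicle tumours, 23.4 ± 3.62 CPM with the low dose and 22.6 ± 4.80 CPM with the high dose. Its log2 fold changes were 0.63 (adjusted p = 0.0913 by edgeR) and 0.58 (adjusted p = 0.108). The ubiquitin ligase NEDD4L stood at -0.27 at 30 mg/kg (adjusted p = 0.506), the tankyrase TNKS at -0.19 at 10 mg/kg (adjusted p = 0.640) and the polarity scaffold PALS1 at -0.16 at 10 mg/kg (adjusted p = 0.753). Of 12 genes of the actin-regulated SRF and MRTF programme, which shares several targets with YAP, 0 passed at either dose (medians 0.10 and 0.18). FHL2 stood at 0.39 (adjusted p = 0.260) and TPM1 at 0.31 (adjusted p = 0.507) at 30 mg/kg. At 10 mg/kg MRTFA stood at 0.34 (adjusted p = 0.278), FHL2 at 0.33 (adjusted p = 0.386) and SRF at 0.49 (adjusted p = 0.414). Without replicate 2 of 10 mg/kg the medians at 10 mg/kg were -0.01 for the partners, 0.22 for the SRF and MRTF genes, 0.01 for the Hippo kinases and upstream genes, and 0.03 for the co-activators and TEADs, and 0 genes of these 4 lists passed.

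**Figure D5:**
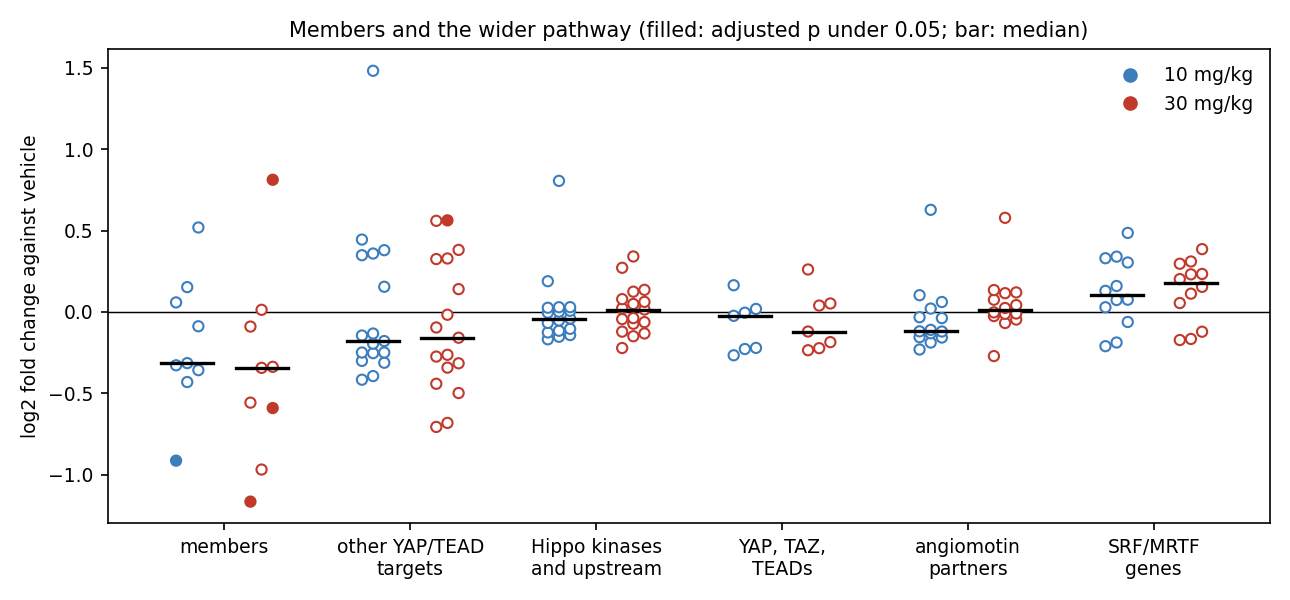
Log2 fold change against vehicle (vertical axis) of each tested gene in the member set and 5 lists of pathway genes, at 10 mg/kg in blue and 30 mg/kg in red. Filled points passed an adjusted p of 0.05 and black bars are medians. Outside the members, AREG at 30 mg/kg is the only filled point.

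Markers of other cell types were highest in 1 library, and some were above the vehicle range in others. The summed CPM of 10 fibroblast markers was 348.7 in replicate 2 of 10 mg/kg, against at most 106.5 in the rest of that group and 63.7 to 110.5 with vehicle. Most of it was COL1A1, with a mean of 86.8 CPM in vehicle tumours (median sum 92.65) and up to 269.5 CPM at 10 mg/kg. With vehicle, 7 of the 10 markers had a mean under 1 CPM. DCN and POSTN were at 0 in every vehicle library. The sum of 10 endothelial markers was 134.8 in replicate 2 of 10 mg/kg, at most 33.9 in the rest of the group and 8.13 to 23.5 with vehicle. For 10 leukocyte markers these sums were 128.3, at most 27.5, and 11.5 to 18.8. For 8 smooth muscle and pericyte markers they were 130.5, at most 45.7, and 20.1 to 26.2. The 10 colon epithelium markers summed to 2379 in replicate 2, against 3985 to 4635 with vehicle. Most of the vehicle sum was KRT8 and KRT18, at means of 2751 and 1052 CPM. Some markers near 0 with vehicle went the other way: CDX1, CEACAM5, LGALS4 and VIL1 reached 10.7, 6.42, 19.25 and 4.28 CPM at 10 mg/kg. With vehicle they reached at most 0, 0.678, 0.678 and 1.13 CPM. At the depth of replicate 2, 9 counts, as for NT5E, came to 19.25 CPM, so values of this size there are few counts. CDH1 went down to 102.7 CPM at 10 mg/kg, against at least 158.3 CPM with vehicle. EPCAM was at 367.9 CPM or more at 10 mg/kg, beside 311.1 to 419.5 CPM with vehicle. The 30 mg/kg group had fibroblast sums of 75.0 to 95.1, endothelial sums of 8.07 to 28.8, leukocyte sums of 13.1 to 22.5, smooth muscle and pericyte sums of 20.3 to 42.2, and colon epithelium sums of 3689 to 4847. The counts are of human genes, while such cells in tumours formed in mice by a human line would be mouse cells. How mouse reads were separated was not given, so the sums do not measure the amount of these cells. The source of the marker counts and the part of host cells in the results of either dose were not tested. Nor was the part of low depth in the high CCN1, CCN2 and ANKRD1 values of replicate 2.

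The genes whose pattern was most like that of AMOTL2 were ranked by Pearson's r of log2 CPM over the 17 libraries other than the shallow one, among 12554 genes with a mean of at least 5 CPM. These libraries share 3 treatment groups, so a gene that differs between them will score high or low, and r is given as a description. The highest were TICRR (0.90), CEP152 (0.86), SHPK (0.85), SLC1A3 (0.85) and GLB1L2 (0.85). Of these, SLC1A3, a glutamate transporter, and SHPK, a sugar kinase, were called lower at 30 mg/kg (log2 fold changes -0.79 and -0.47, adjusted p = 0.00332 and 0.0478 by edgeR). Among the lowest were FDFT1 and DHCR7, each at -0.94 and both enzymes of cholesterol synthesis. Both rose at both doses, by 0.78 and 0.94 on the log2 scale for FDFT1 and by 0.89 and 1.00 for DHCR7 (adjusted p from 0.000661 to 0.0130 by edgeR). Among the members, r to AMOTL2 was 0.74 for CCN2, 0.74 for ARHGEF17, 0.73 for LATS2, 0.71 for AXL and 0.45 for CCN1, and it was 0.26 for AMOTL1, -0.09 for AMOT and -0.78 for NT5E.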

How the data were processed

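Bulk RNA-seq was analysed from 18 tumour libraries (3 groups of 6). Per the labels' protocols, libraries were made with a stranded total RNA kit for low input. The submitters' processing notes name STAR 2.4.2a and the builds hg19 and mm10. Their roles, the annotation, the quantifier and the separation of human from mouse reads were not given in the sources used here. Per the file headers, the deposited tables hold expected counts and TPM for 25343 Entrez genes per library. Groups were taken from the treatment labels.

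Expected counts were rounded and fitted with edgeR 4.0.16 (R 4.3.3; TMM normalisation, default low-count filter, robust quasi-likelihood test, all 18 libraries, Benjamini-Hochberg adjustment over 14074 genes, threshold 0.05). The SE is the log2 fold change divided by the square root of F, and is approximate. TPM served for comparisons between genes. The scripts were tested on simulated data. Alternatives included DESeq2 1.42.0, limma 3.58.1 (log2 of TPM plus 1), other filters and scalings, a replicate block and leaving out each library. Replicate numbers did not pair the samples.

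All 10 members are named. From each list, genes past the threshold are named, or otherwise up to 4 with the smallest p, and every YAP, TAZ and TEAD gene. Genes are also named for likeness to AMOTL2 (the 5 highest and 3 lowest r), of which 1 is not reported here. The members and lists were chosen with earlier results of these data known. Promoter windows came from RefSeq, GRCh38.p14. Low depth limits the values of CCN2 and ANKRD1 most.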

Additional observations from a re-analysis of the deposited data

Results flagged for a closer look

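The 10 members in 3 groups gave 30 sets of 6 libraries. In 4 of these sets, 1 library stood apart from the others of its group by Dixon's criterion. Chance alone meets this criterion in about 1 of 20 sets if values are normal and sets independent. The sets here share libraries, and several ANKRD1 values were 0, so the 4 cannot be judged against that rate. CCN1 measured 74.9 CPM in replicate 2 of 10 mg/kg, the next highest being 18.4 CPM. ANKRD1 measured 12.8 CPM in the same library, the next being 3.18 CPM, and these values were 35 and 6 counts in a library of 433989. ANKRD1 measured 2.74 CPM in replicate 5 of 30 mg/kg (10 counts), the next being 0.718 CPM. ARHGEF17 measured 36.2 CPM in replicate 5 of 30 mg/kg, below the next lowest of 51.6 CPM. Replicate 5 had counts for 20911 genes, against 16902 to 18839 in the other 30 mg/kg libraries. The part of depth or cell make-up in these values was not tested.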

How the results depend on the processing

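AMOTL2 kept its direction and its call at both doses in all 28 alternatives (-0.97 to -0.81 at 10 mg/kg and -1.21 to -1.12 at 30 mg/kg on the log2 scale). The count of members called at 10 mg/kg was 1, from 1 to 2 when 1 library was left out, and 2 (ARHGEF17 joining) without replicate 2 of 10 mg/kg alone or, in an alternative chosen after seeing the data, together with replicate 5 of 30 mg/kg. The count at 30 mg/kg was 3, from 2 to 3 when 1 library was left out, 4 with the 12 libraries fitted alone (AXL joining) and 1 with limma on log2(TPM + 1), where ARHGEF17 had an adjusted p of 0.141 and NT5E of 0.300. Over dose steps the count was 3, from 1 to 3 when 1 library was left out (1 without replicate 1 or 5 of vehicle) and 1 with limma on log2(TPM + 1). Between doses it was 0 in each setting. CCN1 at 10 mg/kg turned to -0.18 with limma-voom, and to -0.26 with both libraries left out, with a range of -0.26 to 0.34 when 1 library was left out. AMOT turned to -0.092 at 10 mg/kg with limma on log2(TPM + 1), and at 30 mg/kg to -0.0027 with the same fit and to -0.0148 with library totals. When 1 library was left out, AMOT ran from -0.038 to 0.135 at 10 mg/kg and from -0.0225 to 0.0809 at 30 mg/kg. NT5E at 30 mg/kg also lost its call without the filter (adjusted p = 0.0623). The cause of these shifts was not tested. Calls over all genes moved by over 1.5 times in some settings: from 66 at 10 mg/kg and 87 at 30 mg/kg to 158 and 179 with DESeq2, 12 and 23 with limma on log2(TPM + 1), 32 and 57 without the filter, 36 and 191 with groups fitted alone, and 121 and 182 without replicate 2 of 10 mg/kg. With the replicate number as a block, 1, 2, 0 and 2 members were called (10 mg/kg, 30 mg/kg, between doses and over dose steps), AMOTL2 stood at -0.92 and -1.17, NT5E at 30 mg/kg had an adjusted p of 0.0760, and 24 and 60 genes were called in all. The pairing has no support in the data: the deviations of 18 pairs with the same number correlated at -0.281 to 0.224 (median -0.0446). The best partner of each library was also sought in each other group. In 6 of these 36 searches it had the same number. With 6 candidates in each search, chance alone would give about as many. Depth limits ANKRD1 and CCN2 most.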
